A study of Rattus norvegicus with 10 samples.

Results

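The genes described here encode metabotropic glutamate receptors, and were taken as the rows of the deposited table whose gene name is *Grm2*, *Grm3*, *Grm4*, *Grm5*, *Grm7* or *Grm8*. All 6 were present once, among 12828 rows. The table comes from RNA-sequencing of the arcuate nucleus (ARC), the hypothalamic nucleus above the median eminence where neurons respond to nutrients and hormones in the blood, in 10 Wistar rat dams at parturition. Of these dams, 5 were fed a 5X-FA diet (folic acid at 5 times the recommended level) and 5 a 5X-MTHF diet (the methylated form, [6S]-5-methyltetrahydrofolic acid, at an equimolar level) through pregnancy. The ARC was cut out freehand from frozen coronal slices with the third ventricle as a guide, and the labels number the libraries of each diet as replicates 1 to 5 from mother rats.

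The study set the 5X-MTHF diet against the 5X-FA diet. That comparison was not made here for any receptor. The table holds 10 columns of values per sample, headed only with the numbers 1 to 10, and these headings match no sample label, so that no column could be given to a dam or a diet. The columns of the deposited comparison of the diets were not used either. The measurement described below is therefore the deposited average log2 CPM of each gene, where CPM is the read count of a gene scaled to library size, in 1 value for the series. It comes with no error and no number of replicates, library depth cannot be learned from it, and whether a receptor differed between the diets cannot be read from it. The values of the column, taken off the log2 scale, sum to 1002152 over all rows.

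Metabotropic glutamate receptors are G protein-coupled receptors that bind glutamate, the main excitatory transmitter of the brain, and tune the release and the action of transmitters more slowly than the glutamate-gated ion channels do. They fall into groups. Group I receptors couple to Gq and phospholipase C and sit mainly behind the synapse. Group II and group III receptors couple to Gi and Go, lower cyclic AMP and, at many terminals, act as autoreceptors that hold back glutamate release. In the hypothalamus, glutamate drives the neurons of the ARC that control feeding and reproduction.

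All 6 receptor genes, chosen as rows of the table, lay away from the ends of its range. The table is labeled as filtered, and the paper describes a filter on low read counts. Medians and percentiles given here therefore rank the receptors among the genes that were kept. A gene not found may have been filtered out. The receptors spanned 4.21 (*Grm2*) to 6.44 (*Grm3*) in average log2 CPM, and their median was 4.98 against a median of 4.94 over all 12828 rows. Of the receptors, 3 lay above the median of all rows and 3 below it. All rows together ran from -2.07 to 14.56, and the middle 50% of them lay between 3.65 and 6.18. *Grm5* (6.19) and *Grm3* (6.44) lay above that middle part.

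**Figure D1:**
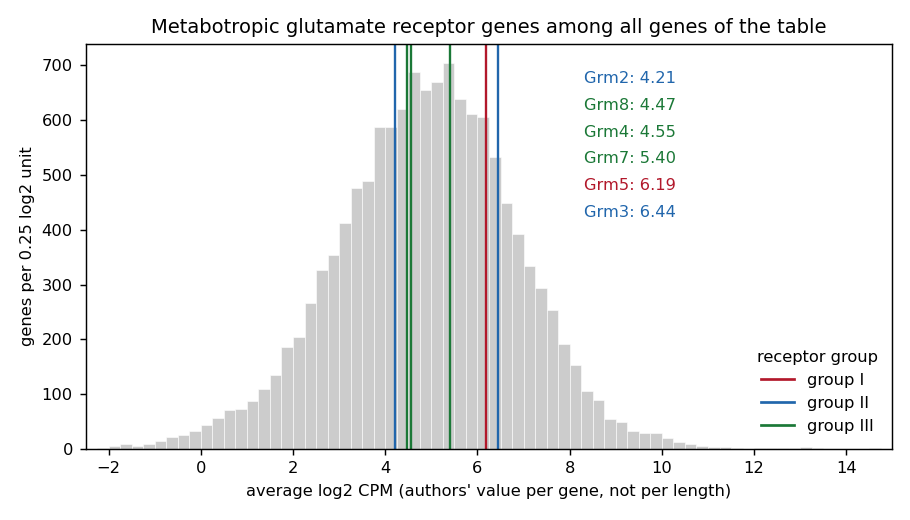
Histogram of the deposited average log2 CPM (x axis, scaled read counts on a log2 scale, not divided by gene length) of all 12828 genes, in bins of 0.25 with the number of genes on the y axis. Each vertical line is 1 receptor gene, colored by receptor group. *Grm5* and *Grm3* stand on the upper side of the bulk of the genes, at 6.19 and 6.44, and *Grm2*, *Grm8* and *Grm4* lie close together on its lower side, from 4.21 to 4.55.

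The CPM scale counts reads and is not divided by transcript length, and transcript lengths in the build of the table were not at hand. The label of the table names FPKM, a unit scaled to transcript length, but its columns of values per sample were used in no step. A longer mRNA yields more reads at the same number of molecules, so the values that follow order the genes by the reads they took, and say nothing of which receptor had more mRNA molecules. Reads in a bulk sample also cannot tell more cells of a type apart from more RNA per cell.

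Group I is represented by *Grm5* (ENSRNOG00000016429), the gene of the receptor mGlu5, which is found behind synapses and in astrocytes. It lies on chromosome 1 of Rnor_6.0 from 151439409 to 151783392. Its average log2 CPM was 6.19, or 72.8 CPM, and 75.1% of all rows took fewer reads.

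Group II holds the receptor genes with the most and the fewest reads of the 6. *Grm3* (ENSRNOG00000005519), which encodes mGlu3, a receptor of neurons and glia, lies on chromosome 4 from 21317695 to 21560490. Its average log2 CPM was 6.44, or 86.8 CPM, with 79.5% of all rows below it. *Grm2* (ENSRNOG00000013171) encodes mGlu2, a mainly neuronal receptor that lies on axons away from the release site and restrains release. The gene lies on chromosome 8 from 115344999 to 115358046. *Grm2* had an average log2 CPM of 4.21, or 18.5 CPM, with 34.9% of all rows below it. *Grm3* thus took 4.69 times as many reads as *Grm2*, a difference of 2.23 on the log2 CPM scale. No spread between dams is set beside this ratio, because the columns of values per sample were not used.

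Group III receptors sit mostly at the release site of axon terminals, and 3 of their genes are among the 6. *Grm7* (ENSRNOG00000005662) encodes mGlu7, a widely distributed receptor with a low affinity for glutamate. The gene lies on chromosome 4 from 142780987 to 143367578. The average log2 CPM of *Grm7* was 5.40, or 42.3 CPM, with 59.6% of all rows below it. *Grm8* (ENSRNOG00000021468), the gene of mGlu8, also lies on chromosome 4, from 54474136 to 55407922. For *Grm8* the average log2 CPM was 4.47, or 22.2 CPM, with 40.1% of all rows below it. *Grm7* took 1.91 times the reads of *Grm8*.

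*Grm4* (ENSRNOG00000000487), the gene of mGlu4, a receptor best known from the terminals of cerebellar granule cells, lies on chromosome 20 from 6745682 to 6791519. Its average log2 CPM was 4.55, or 23.5 CPM, with 41.8% of all rows below it. *Grm4* and *Grm8* differed by 0.08 on the log2 CPM scale, the smallest gap between the group III genes.

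Counting the reads of *Grm4* has a limit that was not seen for the other receptor genes within this table. The table lists *Grm4* as a processed transcript, a biotype given to 41 rows in all, and the other 5 receptor genes as protein-coding. The whole span of *Grm4*, 45.8 kb, also lies inside the span that the table gives for *Ppil1*, from 6515638 to 6864571 of chromosome 20. *Ppil1*, which encodes a peptidyl-prolyl isomerase of the spliceosome, is listed with an average log2 CPM of 4.54. The libraries were strand-specific by the methods of the paper, which would separate both genes if they lie on opposite strands and the counting used strand. The table gives no strand, and the strand setting of the read counting is not given in the sources used here. How reads from this stretch were shared between both genes was not tested, and the value of *Grm4* is uncertain for that reason. The spans of the other 5 receptor genes overlap 0 other rows of the table. Overlap with genes absent from the table was not checked.

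In sum of reads, the 6 genes took 266.1 CPM, or 0.027% of the total. The pair of group II genes took 105.3 CPM, 39.6% of the sum. The 3 group III genes took 88.0 CPM, 33.1% of it, and *Grm5* of group I took the remaining 27.4%. Most of the group II share was that of *Grm3*.

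The receptor genes differ widely in genomic size. Of the 6, *Grm2* has the shortest span, 13.0 kb, below the median of 21.5 kb over all rows. *Grm8* spans 933.8 kb, more than 99.9% of all rows, and *Grm7* spans 586.6 kb, more than 99.5% of them. *Grm5* and *Grm3* span 344.0 kb and 242.8 kb. These spans include introns, which spliced mRNA does not hold, and so they cannot serve as the length that would turn CPM into a level per length. Of the 6 genes, *Grm3*, *Grm7* and *Grm8* lie on chromosome 4, which carries 709 rows of the table. They lie far apart on it, and none is the neighbor of another.

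**Figure D2:**
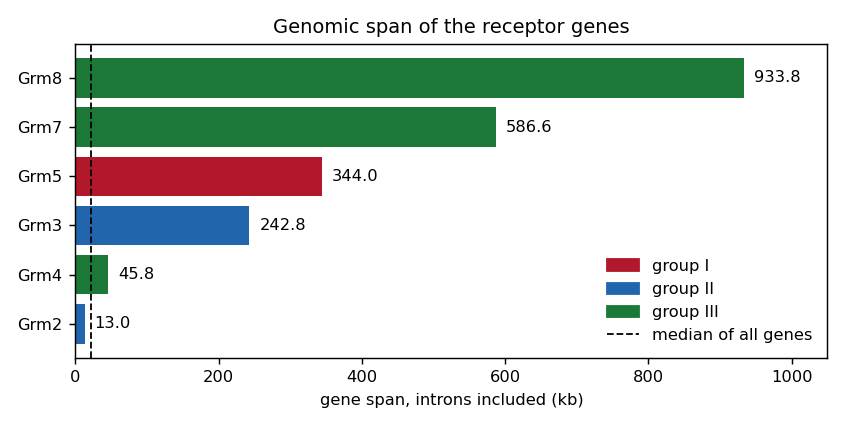
Span of each receptor gene in the table's annotation (x axis, kb, introns included), as bars colored by receptor group, with a dashed line at the median span of all genes, 21.5 kb. *Grm2*, at 13.0 kb, is the only bar of the 6 that ends before this line, and *Grm8* is the longest, at 933.8 kb.

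The sequence before the transcription start was compared for the receptor genes that have an entry in the RefSeq promoter table of build GRCr8, which were *Grm5*, *Grm7* and *Grm8*, 3 of the 6. The 250 bases before the start differ in the number of CpG dinucleotides, the main sites of DNA methylation in mammals. *Grm7* had 9 CpG and a GC content of 62.0%, *Grm8* had 5 CpG and 47.2%, and *Grm5* had 1 CpG and 36.4%. Over 33465 promoters of the same table, the medians were 5 CpG and 51.2%. No methylation or promoter activity was measured in these samples.

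The windows of *Grm7* and *Grm5*, the highest and the lowest of the 3 in CpG, are printed below from 5′ to 3′ to show this contrast, with each CpG in capitals. The window of *Grm7* lies at chr4:145286476-145286725 and that of *Grm5* at chr1:150733503-150733752, both on the plus strand of GRCr8, a build other than that of the table.
Grm7: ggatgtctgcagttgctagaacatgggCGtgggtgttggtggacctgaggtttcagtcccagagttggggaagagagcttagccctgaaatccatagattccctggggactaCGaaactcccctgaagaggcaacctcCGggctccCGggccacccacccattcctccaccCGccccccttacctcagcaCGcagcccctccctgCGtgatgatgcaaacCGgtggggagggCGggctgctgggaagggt
Grm5: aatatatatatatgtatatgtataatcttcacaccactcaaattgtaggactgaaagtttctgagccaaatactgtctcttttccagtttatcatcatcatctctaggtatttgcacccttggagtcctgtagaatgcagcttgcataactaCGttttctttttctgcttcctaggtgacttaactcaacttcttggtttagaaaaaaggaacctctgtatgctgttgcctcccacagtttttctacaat
The start behind the window of *Grm7* lies 12 bases inside the outermost start of the RefSeq gene. Those of *Grm5* and *Grm8* lie 11.0 kb and 9.45 kb inside it, so these genes have further starts whose sequence is not described here.

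On either strand of these windows, the GC box GGGCGG, a binding motif of Sp1-type factors, matched 2 times in *Grm7* and 0 times in *Grm5* and *Grm8*. It is present in the same window of 30.5% of all promoters. The TATA box TATAAA, the CCAAT box and the letters TGACG, one part of the cyclic AMP response element, matched 0 times in all 3 windows, and 12.9%, 34.0% and 18.2% of all promoters hold them. A match describes letters only, and a missing match says only that these letters are not in this window.

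The receptors stand among other genes of glutamate signaling, which were grouped in lists by function. All 15 ionotropic receptor subunits looked for were found, the ion channels through which glutamate excites neurons directly. On the log2 CPM scale they lay between 4.75 and 9.40, around a median of 5.85, and 14 of 15 lay above the median of all rows. The subunits with the most reads were *Gria2* (9.40), *Grin1* (8.54) and *Gria1* (7.50) on the log2 CPM scale. Together the 15 genes took 2114 CPM against 266.1 for the 6 metabotropic genes. On this scale 3 of the 6 metabotropic genes, *Grm2*, *Grm4* and *Grm8*, took fewer reads than the ionotropic subunit with the fewest.

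Of 38 symbols of signaling partners of metabotropic receptors, such as the Homer and Shank scaffolds, G protein subunits, phospholipase C and adenylyl cyclases, 36 were found. The symbols not found were *Shank2* and *Norbin*, the latter another name of *Ncdn*, which was found. The median average log2 CPM of the 36 was 6.19, and 30 lay above the median of all rows. Among the 3 partners with the most reads were *Ncdn* (9.60), which encodes the receptor-binding protein neurochondrin (norbin), and *Shank1* (8.51), a scaffold of the postsynaptic density. All 8 genes of glutamate supply and clearance were found, led by *Glul* (10.76), the astrocyte enzyme glutamine synthetase, and *Slc1a3* (9.73), a glial glutamate transporter.

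**Figure D3:**
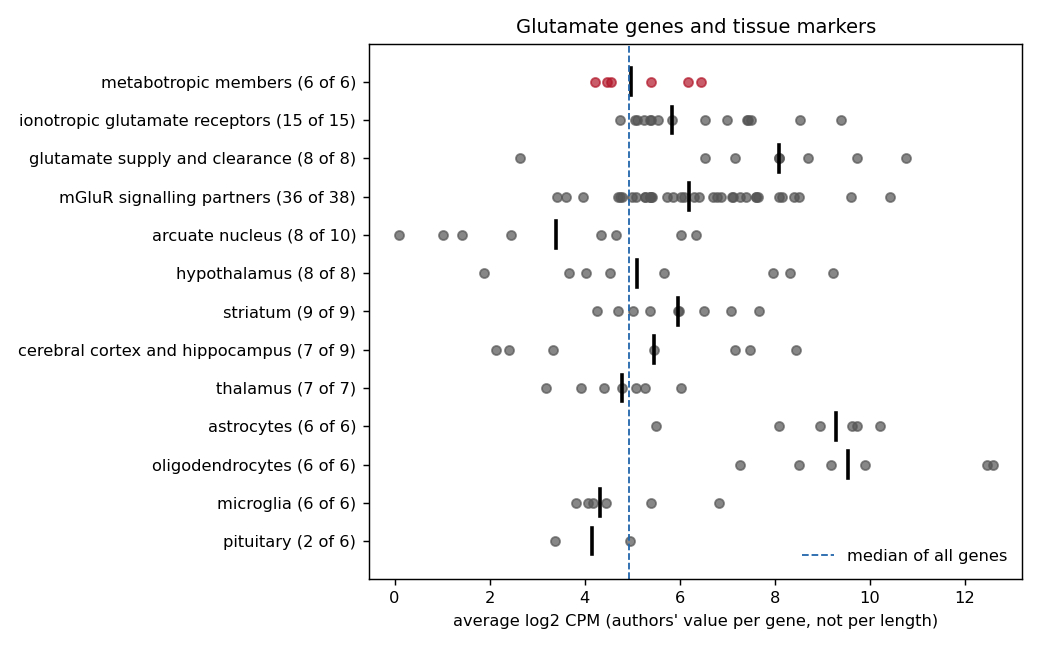
Deposited average log2 CPM (x axis, scaled read counts on a log2 scale, not divided by length) of the receptor genes in red and of lists of glutamate genes and of regional and cell type markers in gray, 1 point for each gene, with the number found of those looked for beside each name. Black bars are list medians and the dashed line is the median of all genes, 4.94. The receptor genes sit around that line, with the ionotropic subunits mostly to its right and all astrocyte and oligodendrocyte markers to its right, with list medians of 9.29 and 9.54.

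The label of the tissue was set against its markers, since metabotropic receptors are found in most brain regions. Of 10 arcuate markers, 8 were found, and the symbols not found were *Npy* and *Nr5a2*. The arcuate markers with the most reads were *Sst* (6.35), *Cartpt* (6.02) and *Pomc* (4.67), the precursor of the satiety peptide alpha-MSH. The lowest of them was *Kiss1*, at 0.08, and the median of the list was 3.40 on the log2 CPM scale, with 2 of the 8 above the median of all rows. All 8 wider hypothalamic markers were found, with *Pmch* (9.24) and *Oxt* (8.33), made by neurons of the lateral and paraventricular hypothalamus, taking the most reads. Markers of regions outside the hypothalamus were found as well. All 9 striatal markers were found, from 4.26 to 7.68, and their median of 5.96 was higher than that of the arcuate list, with 7 of the 9 above the median of all rows. All 7 thalamic markers ran from 3.19 to 6.03 with a median of 4.79, and 3 were above the median of all rows. Of 9 markers of cerebral cortex and hippocampus 7 were found, from 2.13 to 8.44, with a median of 5.46 and 4 above the median of all rows. In that list the transcription factors *Neurod2*, *Neurod6* and *Tbr1* were the lowest. These lists hold different genes and the scale is not per length, so the medians describe reads and not the share of each region. The median was 9.29 for 6 astrocyte markers, 9.54 for 6 oligodendrocyte markers and 4.32 for 6 microglial markers. Of 6 pituitary markers 2 were found, *Cga* (4.95) and *Tshb* (3.37). Several of these genes, such as *Penk* and *Camk2a*, are also expressed in hypothalamic neurons. From which of these cells and regions the receptor reads came was not tested.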

How the data were processed

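RNA-sequencing was carried out on the ARC of 10 dams, 5 per diet, and samples were grouped by their titles. Per the paper's methods and the submitters' processing notes, poly-A selected libraries were trimmed with Trim Galore 0.5.0, aligned with STAR 2.6.0c to Rnor_6.0, counted on Ensembl genes with HTSeq 0.6.1p2 and compared with DESeq2. The authors deposited 1 table, labeled as filtered, of 12828 rows, 12383 of them protein-coding. Its average log2 CPM per gene, on a log2 scale, is the only value the authors deposited that was used here. The tool that made it, and which libraries it averages, are not given in the sources used here, and reading it as an average over the series rests on its name. A further 10 columns of values per sample match no sample label and were used in no step. Another 4 columns hold the comparison of the diets (log fold change, F, p-value, FDR), and were not used. The paper names DESeq2 for its comparison, and whether these 4 columns came from that tool is not given in the sources used here.

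No test was run, and the planned tests between diets need values per dam. Percentiles, sums and ratios of reads, spans and overlaps were computed with Python 3.11.15, pandas 2.3.3, numpy 2.4.6, scipy 1.17.1 and matplotlib 3.10.9. The calculations of percentiles, motif matches, CpG counts and GC content were tested on simulated data, and the others were not. Promoter windows came from RefSeq tables of GRCr8, matched by symbol for 3 of the 6 genes. Named genes are the 6 receptors and up to 3 genes with the most reads of each list, a few of which are not reported here. *Ppil1*, *Kiss1*, *Ghrh*, *Agrp*, the cortical transcription factors and the symbols named as not found were added after the results were seen. *Penk* and *Camk2a* lead their lists. The members and lists were chosen with earlier results of these data known. *Grm6* was not analysed here.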

Additional observations from a re-analysis of the deposited data

How the results depend on the processing

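No paired analysis was possible because the reported values come from no test. The diets were fed to different dams, and nothing in the labels or methods ties equal replicate numbers to a shared batch or day. Since no column could be given to a dam, other fits set down in advance were not run: another pseudocount or scaling, a filter on low values, leaving out each dam, and other adjustments of p-values. The alternatives that could be run were chosen after seeing the data. Ranked among the 12383 protein-coding rows, the read percentiles of the 6 receptors moved by 0.52 to 1.68 points, and among the 12462 rows whose average log2 CPM was 1 or more by 0.60 to 1.91 points. In each of these rankings the move was beyond the exact 95% binomial interval of the percentile for 4 of the 6 genes. That interval treats the rows as random draws, which they are not. It is a yardstick for the size of the move and measures no uncertainty of the percentile. The number of receptors above the median was 3 among all rows, 3 among protein-coding rows and 3 with the low rows left out. The receptors nearest the median had 41.8% (*Grm4*) and 59.6% (*Grm7*) of all rows below them. Moves of the size seen could not change that number. With the whole 300 bases of the promoter window, 50 of them after the start, the CpG percentiles of the 3 windows moved by 1.31 to 5.67 points. By the same yardstick all 3 moved. Counting error, library depth and the spread between dams cannot be judged from a single average per gene.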
